A study of Mus musculus with 8 samples.

Results

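Prostaglandins and leukotrienes are lipid mediators made from arachidonic acid, and 10 genes of their synthesis and sensing were followed in the TAMs of B16F10 tumors. The 10 genes are Pla2g4a, Ptgs1, Ptgs2, Ptges, Hpgds, Ptger2, Ptger4, Alox5ap, Alox5 and Ltc4s. They were taken by name, as listed eicosanoid enzymes and receptors, and are 10 of the 23413 gene symbols in the count table. Each of the 10 passed the filter on low counts in all 3 comparisons made below.

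The TAMs came from 8 male C57BL/6 mice, 8 to 10 weeks old, that carried a subcutaneous tumor of B16F10, a melanoma line of the same mouse strain. Of these mice 2 received DMSO, the vehicle, and 6 received thiostrepton, a thiopeptide antibiotic, 4 of them by I.P. injection and 2 by S.C. injection beside the tumor. Doses were given on days 6 and 12 and the tumors were taken on day 18. The sort kept CD45+F4/80+CD11b+Gr-1- cells, and the RNA of each mouse made 1 library. By S.C. the mice received 20 mg/kg, while the I.P. dose of these 4 mice and the route of the DMSO injections are not given in the sources used here. The I.P. doses of the study's tumor growth experiments were above its S.C. dose, so route and dose cannot be told apart. All 8 mice carried a tumor, the DMSO mice included.

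In this pathway cytosolic phospholipase A2 frees arachidonic acid from membranes. Cyclooxygenases turn it into an unstable prostaglandin that terminal synthases convert to prostaglandin E2, prostaglandin D2 and others, and EP2 and EP4 are the prostaglandin E2 receptors that raise cyclic AMP. In the other branch arachidonate lipoxygenase, helped by its activating protein, makes the leukotriene precursor that leukotriene C4 synthase joins to glutathione. Macrophages are a known source of both kinds of mediator, and prostaglandin E2 is known for dampening immune cells in tumors.

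The receptor gene Ptger2 rose in TAMs of I.P. mice. Its mean was 7.12 ± 1.05 CPM (reads of a gene scaled to a common library size; SD, n = 2) with DMSO, and by I.P. it was 17.0 ± 4.29 CPM (SD, n = 4). Ptgs2, the inducible cyclooxygenase, and the second receptor gene Ptger4 were higher in S.C. mice than in I.P. mice. By S.C. Ptgs2 was at 189 ± 223 CPM (SD, n = 2), against 14.7 ± 6.20 CPM (SD, n = 4) by I.P., and 1 of the 2 S.C. mice carried most of that difference. None of the 10 genes met the criterion between S.C. and DMSO mice. The criterion was that of the study, an unadjusted P under 0.05, here in edgeR's quasi-likelihood test, with a change of at least 2-fold. It called 1.53% of all genes higher and 0.468% lower in I.P. over DMSO mice, 2.29% and 2.77% in S.C. over DMSO mice, and 2.41% and 4.64% in S.C. over I.P. mice. After adjustment over all genes neither the 10 members nor any other gene passed 0.05 in that test, with an adjusted p of 0.980 for Ptger2, 0.268 for Ptgs2 and 0.412 for Ptger4.

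The sequences just before the start sites of these 3 genes are printed to show what regulatory letters lie there. They are from RefSeq on GRCm38.p6 and run 5′ to 3′ on the strand of the gene, from 250 bases before the RefSeq start to the first 30 bases after it. Ptgs2 is at chr1:150099781-150100060 (plus strand), Ptger2 at chr14:44987861-44988140 (plus strand) and Ptger4 at chr15:5244158-5244437 (minus strand). Capitals mark matches to 6 motifs searched on both strands.
Ptgs2: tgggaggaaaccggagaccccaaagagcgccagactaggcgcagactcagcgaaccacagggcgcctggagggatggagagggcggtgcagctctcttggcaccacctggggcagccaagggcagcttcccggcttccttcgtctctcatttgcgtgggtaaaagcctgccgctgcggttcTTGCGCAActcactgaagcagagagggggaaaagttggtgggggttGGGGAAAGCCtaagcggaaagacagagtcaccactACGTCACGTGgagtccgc
Ptger2: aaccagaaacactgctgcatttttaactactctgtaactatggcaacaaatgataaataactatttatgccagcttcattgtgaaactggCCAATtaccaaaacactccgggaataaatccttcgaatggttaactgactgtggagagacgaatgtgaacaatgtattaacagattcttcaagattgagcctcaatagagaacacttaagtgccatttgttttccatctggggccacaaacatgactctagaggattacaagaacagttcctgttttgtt
Ptger4: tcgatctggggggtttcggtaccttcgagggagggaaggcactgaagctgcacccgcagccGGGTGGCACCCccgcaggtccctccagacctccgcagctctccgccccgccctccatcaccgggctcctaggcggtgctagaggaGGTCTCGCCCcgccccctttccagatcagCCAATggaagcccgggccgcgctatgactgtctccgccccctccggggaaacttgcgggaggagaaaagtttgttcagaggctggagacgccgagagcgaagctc

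The motifs were the core of the cyclic AMP response element (ACGTCA), the E-box (CACGTG), a C/EBP pattern (TTGCNNAA), an NF-kB pattern (GGG, then NNNNN, then CC), the TATA box (TATAAA) and the CCAAT box (CCAAT). Among all 32851 RefSeq windows of this length, 7.26% held ACGTCA, 6.79% CACGTG, 10.4% TTGCNNAA, 48.9% the NF-kB pattern, 13.1% TATAAA and 36.1% CCAAT. The Ptgs2 window held 4 of the 6 motifs. Counted from the start site, ACGTCA lay at 13 to 18 and shared its last bases with CACGTG at 17 to 22. The C/EBP pattern lay from -69 to -62 and the NF-kB pattern from -23 to -14. In the Ptger4 window the NF-kB pattern matched on the plus strand from -189 to -180, on the minus strand from -188 to -179, where the matches overlap, and again on the minus strand from -104 to -95. The same window held CCAAT from -75 to -71, and the Ptger2 window held CCAAT alone, from -160 to -156. A match gives the letters only, and binding was not measured here. The RefSeq start of Ptger2 lies before that of the GENCODE annotation used for gene positions below. Entries were found for 9 of the 10 genes, and Alox5ap was not matched.

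Each library held between 14127506 and 17577466 reads counted on genes, and 3 counts, taken as the floor, were 0.169 to 0.218 CPM. Floors cover counting error only. The TAM label was checked against 11 macrophage markers, which summed to between 12853 and 20150 CPM in the 8 mice, with C1qb at 3797 CPM or more in each. Among 2027 genes with a mean of 1 to 5 CPM, 15.8% and 21.6% had at most 1 count in S.C. mice 1 and 2, 9.82% in I.P. mouse 1 and 0.937% to 3.996% in the other 5 mice. Long transcripts (6000 bases or more) also stood lowest relative to short ones (under 1500 bases) in S.C. mouse 1, by -0.60 on the log2 scale, and in I.P. mouse 1, by -0.39, while the other mice lay between -0.12 and 0.52. By their label numbers all mice but I.P. mouse 1 were grouped by treatment, so label order and treatment cannot be told apart. In sorted bulk RNA, fewer cells of a type and less RNA per cell cannot be told apart either.

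In levels per kb of merged exon length, Alox5ap led with a mean of 176 CPM per kb over the 8 mice and was above Hpgds, at 52.8 CPM per kb, in 8 of 8 mice. Hpgds was above Ptgs2, at 13.2 CPM per kb, in 7 of 8 mice. Ptgs2 was above Pla2g4a, at 9.74 CPM per kb, in 3 of 8 mice, and its mean rests on 1 S.C. mouse. Ptger4 followed at 4.46, Alox5 at 3.87 and Ltc4s at 3.71 CPM per kb, and neighbours in this stretch changed places between mice, with Ptger4 above Alox5 in 5 of 8 and Alox5 above Ltc4s in 4 of 8. Ptger2 stood at 2.84, Ptgs1 at 1.42 and Ptges at 0.647 CPM per kb. From Hpgds down, the ranges of neighbours over the 8 mice overlapped. The most abundant member was thus the helper protein of the leukotriene branch, while the lipoxygenase it serves stood at 3.87 CPM per kb.

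**Figure D1:**
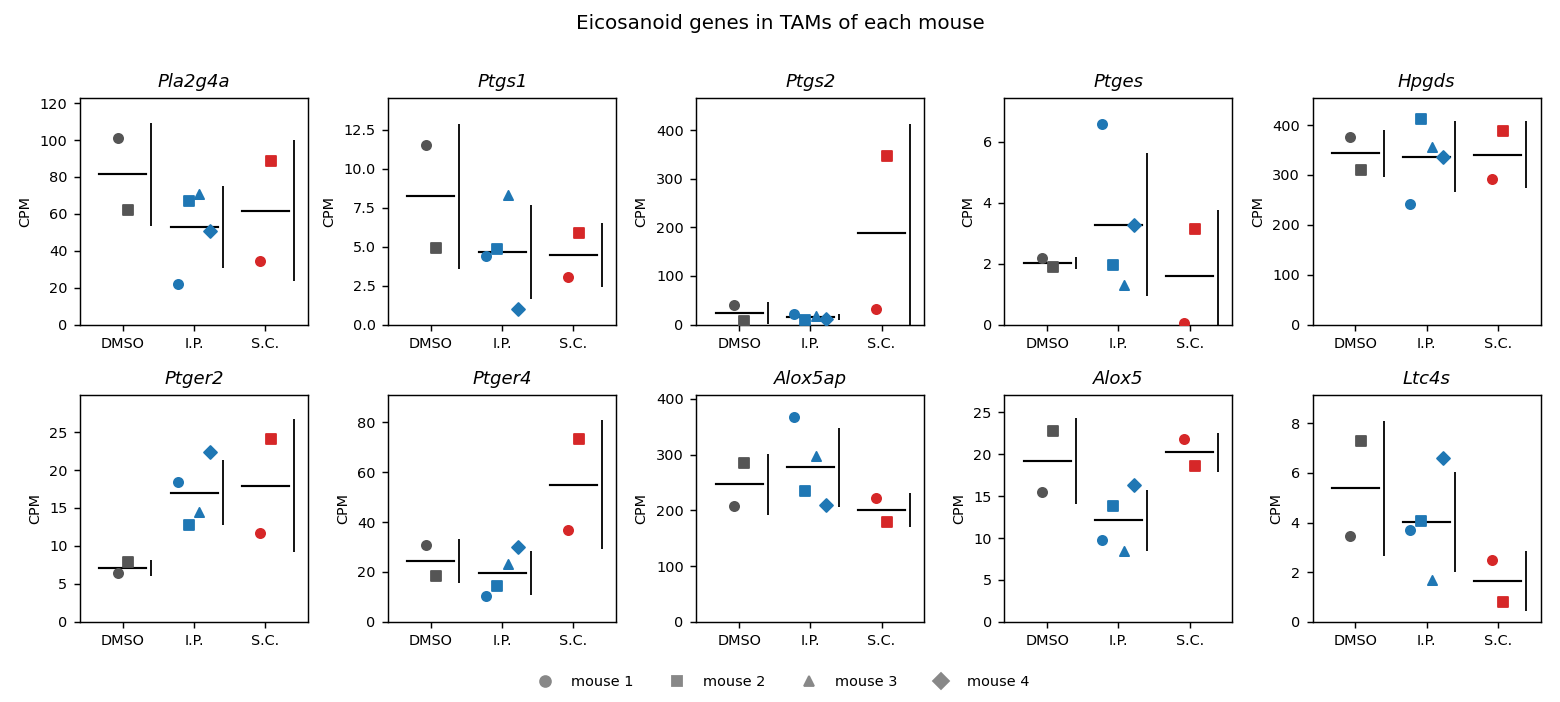
Level of each of the 10 genes in CPM (vertical axis, from 0) in the 2 DMSO, 4 I.P. and 2 S.C. mice, with a point per mouse, a horizontal line at the group mean and a vertical line for 1 SD, drawn no lower than 0. The 4 I.P. mice lie above both DMSO mice for Ptger2, and S.C. mouse 2 stands at 346 CPM for Ptgs2 with all other mice at 40.4 CPM or less.

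Pla2g4a encodes cytosolic phospholipase A2 and spans 149829618 to 149961290 of chromosome 1 (GRCm38), 138740 bases from Ptgs2. It was at 101 and 61.8 CPM in DMSO mice, at 22.2, 67.3, 70.8 and 50.9 CPM in I.P. mice, and at 34.6 and 88.8 CPM in S.C. mice. The lowest values were in I.P. mouse 1 and S.C. mouse 1, and the groups overlapped. Neither route met the criterion, with a log2 fold change over DMSO of -0.63 (SE 0.44, edgeR adjusted p = 0.980) by I.P. and -0.42 (SE 0.54) by S.C. Without S.C. mouse 2 the S.C. change was -1.29, with 1 S.C. mouse left. Pla2g4a has 6.39 kb of merged exons, and its 2 lowest mice were those in which long transcripts stood lowest. With an offset for transcript length, chosen after seeing the data, the changes were -0.62 by I.P. and -0.40 by S.C.

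Ptgs1 encodes the constitutive cyclooxygenase and spans 36230426 to 36252272 of chromosome 2. It stood at 11.5 and 4.94 CPM in DMSO mice, at 4.40, 4.86, 8.35 and 0.992 CPM in I.P. mice, and at 3.03 and 5.90 CPM in S.C. mice. DMSO mouse 1 was highest and the groups overlapped. The log2 fold changes over DMSO, -0.82 (SE 0.70) by I.P. and -0.90 (SE 0.80) by S.C., did not meet the criterion. Without S.C. mouse 2 the S.C. change was -1.495, with 1 S.C. mouse left.

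Ptgs2 encodes the inducible cyclooxygenase and spans 150100031 to 150108227 of chromosome 1. In DMSO mice it was at 40.4 and 7.52 CPM (595 and 131 counts), and in I.P. mice at 21.9, 8.51, 17.9 and 10.7 CPM. In S.C. mice it was at 31.6 and 346 CPM (470 and 4757 counts). All I.P. mice lay between the DMSO mice, while S.C. mouse 2 was above every other mouse and S.C. mouse 1 was above all I.P. mice but below DMSO mouse 1. Between S.C. and I.P. mice the log2 fold change was 3.68 (SE 0.76, edgeR adjusted p = 0.268), which met the criterion. Without S.C. mouse 2 it was 1.10 and no longer did. Against DMSO the S.C. change was 2.97 (SE 1.28, adjusted p = 0.940), and it was 0.35 without S.C. mouse 2. It met the criterion under 8 of 14 alternatives, among them DESeq2 (2.98) and the likelihood ratio test (2.96). Without S.C. mouse 1 it was 3.84 and without DMSO mouse 1 it was 4.62, each with 1 mouse left in a group. By I.P. the change over DMSO was -0.70 (SE 0.60), and it was -1.45 without DMSO mouse 2, which met the criterion, and 0.97 without DMSO mouse 1, which did not.

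Summed neutrophil markers were highest in the mouse with the highest Ptgs2. Of 12 such markers 11 were matched, and their summed level was 186 and 193 CPM in DMSO mice, 133 to 186 CPM in I.P. mice, and 294 and 527 CPM in S.C. mice 1 and 2. In S.C. mouse 1 Cxcr2 alone made 171 CPM of that sum. In S.C. mouse 2 Cxcr2 was at 65.3 CPM, against 63.6 and 96.7 CPM in DMSO mice. The DMSO mice were close in the sum but had Ptgs2 at 40.4 and 7.52 CPM. In S.C. over I.P. mice 7 of the 11 tested met the criterion as higher, against 2.41% of all genes. In S.C. over DMSO mice 5 of 10 did, against 2.29%. The granule genes Ngp, Ltf and Camp were at 60.3, 28.3 and 13.9 CPM in S.C. mouse 2, the mouse with the highest Ptgs2, and at 4.44 CPM or less in every other mouse. The sort took Gr-1- cells, a gate that leaves out cells with the granulocyte marker Gr-1. The part of these cells in the Ptgs2 level was not tested.

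**Figure D2:**
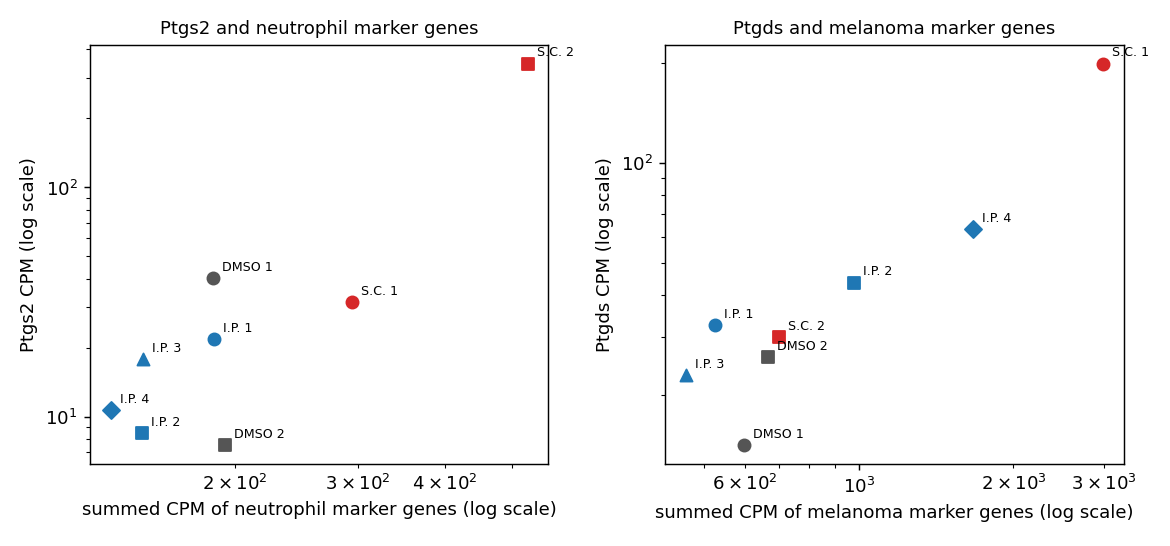
Left, Ptgs2 level against the summed level of 11 neutrophil marker genes, and right, Ptgds level against the summed level of 7 melanoma marker genes, all in CPM on log axes, with a point per mouse. S.C. mouse 2 is highest on both axes at left (527 and 346 CPM), and S.C. mouse 1 is highest on both at right (2986 and 199 CPM).

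Ptges encodes the inducible prostaglandin E synthase and spans 30889471 to 30929863 of chromosome 2. It stood at 2.17 and 1.89 CPM in DMSO mice, at 6.56, 1.95, 1.30 and 3.27 CPM in I.P. mice, and at 0.0673 and 3.13 CPM in S.C. mice. S.C. mouse 1 was the lowest of all, S.C. mouse 2 was within the range of the I.P. mice, and the groups overlapped. The value of S.C. mouse 1 is a single count, under the floor of 0.202 CPM in that library, where 15.8% of genes at this level had at most 1 count. No comparison met the criterion, with log2 fold changes of 0.67 (SE 0.71) for I.P. over DMSO, -0.36 (SE 1.59) for S.C. over DMSO and -1.03 (SE 1.30) for S.C. over I.P. mice. Without S.C. mouse 1 the S.C. change over DMSO was 0.60. Without S.C. mouse 2 it was -4.82, and it was -5.45 over I.P. mice, both resting on that single count.

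Hpgds encodes the hematopoietic prostaglandin D synthase and spans 65117293 to 65144908 of chromosome 6. It was among the most even of the 10 genes, at 376 and 310 CPM in DMSO mice, 242, 413, 355 and 336 CPM in I.P. mice, and 293 and 388 CPM in S.C. mice. Group means were 343 ± 46.7 CPM (SD, n = 2), 336 ± 71.1 CPM (SD, n = 4) and 341 ± 67.4 CPM (SD, n = 2), and the groups overlapped. Its log2 fold changes were -0.03 (SE 0.26, edgeR adjusted p = 0.993) for I.P. over DMSO, -0.04 (SE 0.32) for S.C. over DMSO and 0.02 (SE 0.28) for S.C. over I.P. mice. Mast cells also make prostaglandin D2, and 8 of 11 mast cell and basophil markers, among them Cpa3, Fcer1a and Ms4a2, had 0 counts in all 8 mice, which allows up to 0.218 CPM in any library. Hdc was the marker of that list that met the criterion, at 11.1 and 7.14 CPM in S.C. mice against 1.66 CPM or less in the other 6 mice. As with Pla2g4a, the lowest Hpgds values were in I.P. mouse 1 and S.C. mouse 1, and its merged exons, at 6.43 kb, are as long. The part of length was not tested here either.

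Ptger2 encodes EP2 and spans 44988195 to 45003820 of chromosome 14. Its level was 6.38 and 7.87 CPM in DMSO mice and 18.4, 12.8, 14.5 and 22.4 CPM in I.P. mice, and the S.C. mice were at 11.7 and 24.1 CPM. All 6 thiostrepton mice were above both DMSO mice, and the S.C. and I.P. mice overlapped. The share of all genes with all 6 on one side was not counted. The I.P. rise over DMSO was 1.25 on the log2 scale (SE 0.33, edgeR adjusted p = 0.980) and met the criterion, and by P it ranked 35 among 12174 genes. The S.C. change over DMSO, 1.31 (SE 0.60, edgeR adjusted p = 0.961), was of a like size but rested on 2 mice and did not meet it. The S.C. change met the criterion under 2 of 14 alternatives. These were all 3 groups in 1 fit and the fit without S.C. mouse 1 (1.73), with 1 S.C. mouse left. Between S.C. and I.P. mice the change was 0.07 (SE 0.43). Of 15 alternatives 14 met the criterion for the I.P. rise, those that left out 1 mouse among them, with changes of 1.09 to 1.41. Lymphocytes express Ptger2 too, and 9 T and NK cell markers summed to 18.7 and 8.96 CPM in DMSO mice, 2.74 to 14.5 CPM in I.P. mice, and 30.1 and 25.9 CPM in S.C. mice. The I.P. and DMSO mice overlapped in this sum and both S.C. mice were above them. Of the single markers Gzma (14.9 and 6.92 CPM) and Cd3g (2.42 and 3.28 CPM) were higher in both S.C. mice than in any other mouse. Cd3d (0 and 0.146 CPM) was lower in both, and the others did not set both S.C. mice apart. Cd4 made 11.7 CPM of the sum in S.C. mouse 2 but was at 0.0673 CPM in S.C. mouse 1, where Gzma made 14.9 CPM. The part of this sum in the Ptger2 level was not tested.

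Ptger4 encodes EP4 and spans 5206661 to 5244187 of chromosome 15. Its level was 30.7 and 18.3 CPM in DMSO mice, 10.5, 14.2, 23.4 and 30.04 CPM in I.P. mice, and 36.8 and 73.2 CPM in S.C. mice. Both S.C. mice were above all 6 others. So they were in the summed T and NK cell markers (30.1 and 25.9 CPM, against 18.7 CPM or less), though Cd3d was lowest in both. So they were also in the neutrophil markers (294 and 527 CPM, against 193 CPM or less). In S.C. mouse 1 Cxcr2 alone made 171 CPM of the neutrophil sum. In S.C. mouse 2 Cd4 made 11.7 CPM of the T and NK cell sum. The part of either sum was not tested. For Ptger4 the I.P. and DMSO mice overlapped. Its level was higher in S.C. than in I.P. mice by 1.495 on the log2 scale (SE 0.47, edgeR adjusted p = 0.412), which met the criterion. That change was 0.91 without S.C. mouse 2, outside the criterion. The S.C. change over DMSO was 1.15 (SE 0.50, adjusted p = 0.940), and the I.P. change over DMSO was -0.33 (SE 0.44). The S.C. change over DMSO did not meet the criterion in the quasi-likelihood test. It did under 6 of 14 alternatives, among them DESeq2, at 1.17. Without S.C. mouse 1 it was 1.56, with 1 S.C. mouse left. Over the 8 mice the log2 CPM of Ptger4 and Ptgs2 correlated at r = 0.77, as a description in which S.C. mouse 2 is highest for both genes and all points share their libraries.

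Alox5ap encodes the activating protein of the lipoxygenase and spans 149264767 to 149288153 of chromosome 5. Its level was 208 and 286 CPM in DMSO mice, 367, 234, 297 and 210 CPM in I.P. mice, and 222 and 179 CPM in S.C. mice. I.P. mouse 1 was highest, S.C. mouse 2 lowest, and the groups overlapped. Its log2 fold changes were 0.16 (SE 0.28) for I.P. over DMSO, -0.33 (SE 0.33) for S.C. over DMSO and -0.47 (SE 0.30) for S.C. over I.P. mice. Over the 8 mice it ran against Ptger4 in log2 CPM, with r = -0.83, where the points share library and depth and the genes differ in length, at 1.42 and 6.65 kb.

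Alox5 encodes the arachidonate lipoxygenase of the leukotriene branch and spans 116410077 to 116461178 of chromosome 6. Its level was 15.5 and 22.8 CPM in DMSO mice, 9.81, 13.9, 8.46 and 16.3 CPM in I.P. mice, and 21.9 and 18.6 CPM in S.C. mice. Both S.C. mice were above all I.P. mice, and 3 of 4 I.P. mice were below both DMSO mice. The changes did not meet the criterion, at -0.67 (SE 0.34) for I.P. over DMSO, 0.05 (SE 0.45) for S.C. over DMSO and 0.74 (SE 0.41) for S.C. over I.P. mice.

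Ltc4s encodes leukotriene C4 synthase and spans 50236461 to 50238616 of chromosome 11. Its level was 3.46 and 7.29 CPM in DMSO mice, 3.70, 4.07, 1.69 and 6.59 CPM in I.P. mice, and 2.49 and 0.801 CPM in S.C. mice. Both S.C. mice were below both DMSO mice but overlapped the I.P. mice. The S.C. change over DMSO was -1.73 (SE 1.03) and did not meet the criterion. Without S.C. mouse 1 it was -2.77, with 1 S.C. mouse left. The I.P. change over DMSO was -0.43 (SE 0.58), and the S.C. libraries were those in which more genes at this level had at most 1 count.

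**Figure D3:**
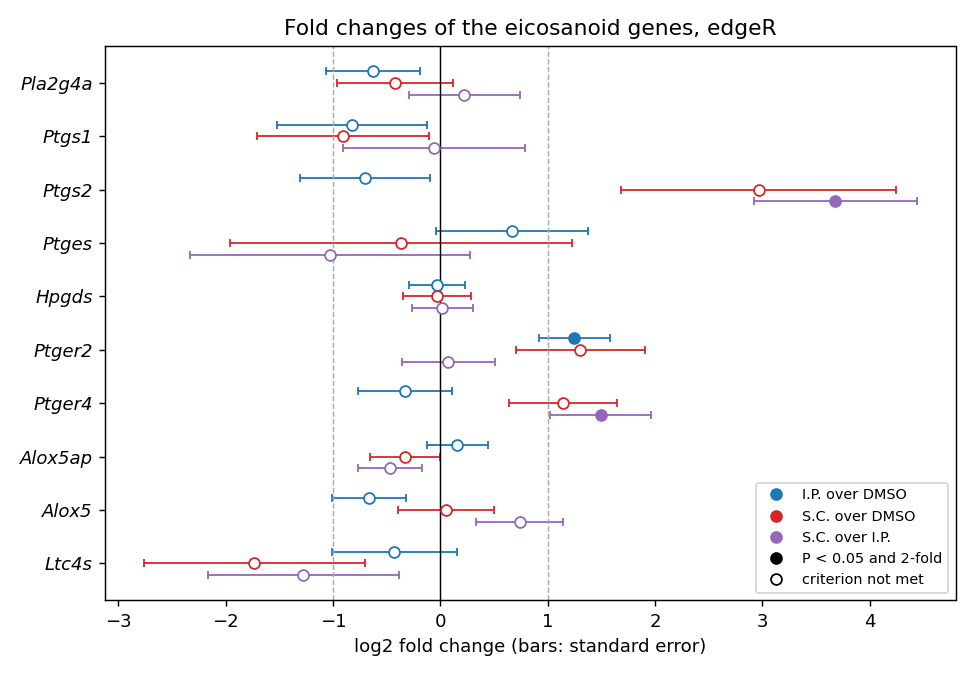
Log2 fold change of each of the 10 genes (horizontal axis, bars are the standard error) for I.P. over DMSO, S.C. over DMSO and S.C. over I.P. mice, with filled points where the criterion was met and dashed lines at 2-fold. Filled points are Ptger2 for I.P. over DMSO (1.25) and Ptgs2 (3.68) and Ptger4 (1.495) for S.C. over I.P. mice.

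Set beside the shares of all genes, the 10 genes gave 0 to 2 calls in a comparison. In I.P. over DMSO mice 1 of the 10 was higher by the criterion and 0 lower, where 1.53% of the 12174 genes tested were higher and 0.468% lower. All I.P. mice were above both DMSO mice for 1 of the 10 and below them for 0, against 7.32% and 6.83% of all genes. In S.C. over DMSO mice 0 of the 10 met the criterion, against 2.29% higher and 2.77% lower of 11680 genes. The S.C. mice were above both DMSO mice for 2 of the 10 and below for 1, against 17.1% and 17.2%. In S.C. over I.P. mice 2 of the 10 were higher and 0 lower, against 2.41% and 4.64% of 12206 genes, and the groups did not overlap for 3 of the 10, all higher, against 8.05% higher and 10.5% lower.

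The median log2 fold change of the 10 genes was -0.38 for I.P. over DMSO, -0.18 for S.C. over DMSO and 0.05 for S.C. over I.P. mice, where that of all genes was 0.02 in each comparison. At an adjusted p under 0.05 edgeR's quasi-likelihood test called 0 genes in each comparison. At an unadjusted P under 0.05 there were 418, 632 and 1049 genes, and at an adjusted p under 0.05 DESeq2 called 19, 107 and 234 and edgeR's likelihood ratio test 10, 179 and 265. Both routes were compared with the same 2 DMSO mice, so their fold changes are not independent. For 1 gene, the smallest p that an exact permutation test (two-sided) allows is 0.133 with 4 mice against 2 and 0.333 with 2 against 2.

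A further 74 genes of the pathway were listed by role. By I.P. 54 were tested, 2 were higher and 2 lower by the criterion (3.70% and 3.70%), with a median log2 fold change of 0.06. In S.C. over DMSO mice 3 of 52 were higher and 1 lower (5.77% and 1.92%), and in S.C. over I.P. mice 3 of 53 were higher and 1 lower (5.66% and 1.89%), with medians of 0.00 and -0.01. Set beside the shares of all genes given above, the listed genes that met the criterion number 1 to 3 in a direction.

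In the list of arachidonic acid release Mgll alone met the criterion. Mgll encodes monoacylglycerol lipase, which frees arachidonic acid from an endocannabinoid, and spans 88724412 to 88828360 of chromosome 6. Its level was 2.44 and 2.35 CPM in DMSO mice, 24.2, 5.59, 6.04 and 8.40 CPM in I.P. mice, and 8.21 and 5.61 CPM in S.C. mice. All 6 thiostrepton mice were above both DMSO mice, and I.P. mouse 1 stood far above the rest. The I.P. rise was 2.19 on the log2 scale (SE 0.68, edgeR adjusted p = 0.980), and it was 1.48 without I.P. mouse 1. It was 2.22 without DMSO mouse 1 and 2.17 without DMSO mouse 2, at an unadjusted P over 0.05 in both. Daglb, a diacylglycerol lipase and the most abundant gene of the list, did not meet the criterion, at 179 ± 58.3 CPM (SD, n = 2) with DMSO, 205 ± 33.8 CPM (SD, n = 4) by I.P. and 231 ± 31.7 CPM (SD, n = 2) by S.C.

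Among prostanoid synthases Ptgds, the lipocalin-type prostaglandin D synthase, met the criterion in S.C. mice. The gene spans 25466709 to 25470046 of chromosome 2. Its level was 14.2 and 26.1 CPM in DMSO mice, 32.6, 43.7, 23.1 and 63.2 CPM in I.P. mice, and 199 and 29.996 CPM in S.C. mice. S.C. mouse 1 was above every other mouse, and S.C. mouse 2 lay within the range of the I.P. mice. The S.C. change was 2.47 (SE 0.90, edgeR adjusted p = 0.863) over DMSO and 1.49 (SE 0.65, adjusted p = 0.576) over I.P. mice. Without S.C. mouse 1 these were 0.54 and -0.44, and without DMSO mouse 1 the first was 2.09, each of them outside the criterion. The second also missed it without I.P. mouse 1, 2 or 3, at 1.40, 1.53 and 1.26.

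Melanoma markers were highest in the mice with the highest Ptgds. The 7 markers summed to 596 and 667 CPM in DMSO mice, 525, 977, 461 and 1671 CPM in I.P. mice, and 2986 and 700 CPM in S.C. mice, and S.C. mouse 1, I.P. mouse 4 and I.P. mouse 2 were the highest for both, in that order. Of the 7, 3 met the criterion as higher in S.C. than in DMSO mice, against 2.29% of all genes. The part of tumor RNA in the Ptgds level was not tested. Tbxas1, thromboxane synthase and the most abundant gene of the list, was at 218 ± 48.7 CPM (SD, n = 2) with DMSO, 182 ± 70.5 CPM (SD, n = 4) by I.P. and 239 ± 17.9 CPM (SD, n = 2) by S.C., without meeting the criterion.

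Hpgd, the dehydrogenase that inactivates prostaglandins, fell in I.P. mice. The gene spans 56294585 to 56321043 of chromosome 8. Its level was 9.56 and 13.7 CPM in DMSO mice, 3.89, 9.18, 5.02 and 2.57 CPM in I.P. mice, and 6.996 and 6.48 CPM in S.C. mice. Every thiostrepton mouse was below both DMSO mice, the nearest being I.P. mouse 2. The I.P. change was -1.18 (SE 0.50, edgeR adjusted p = 0.980). It was called under 8 of 15 alternatives. It missed the criterion at -1.41 without DMSO mouse 1, -0.89 without DMSO mouse 2, and -1.06, -1.17 and -0.95 without I.P. mouse 1, 3 or 4. Ptgr2, a prostaglandin reductase, was the most abundant gene of the inactivation list, at 70.8 ± 4.58 CPM (SD, n = 2) with DMSO, 71.6 ± 25.0 CPM (SD, n = 4) by I.P. and 94.7 ± 35.5 CPM (SD, n = 2) by S.C., and did not meet the criterion.

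Of the leukotriene enzymes Dpep2 rose in I.P. mice. Dpep2 encodes a dipeptidase that converts leukotriene D4 to leukotriene E4. It had the highest mean of its list over the 8 mice. With DMSO its mean was 67.7 CPM, below those of Cotl1 (106 CPM), Cyp4f18 (90.9 CPM) and Lta4h (81.4 CPM). Dpep2 was at 74.6 and 60.7 CPM in DMSO mice, 363, 92.3, 101 and 204 CPM in I.P. mice, and 87.4 and 128 CPM in S.C. mice. All 6 thiostrepton mice were above both DMSO mice, and I.P. mouse 1 was highest. The I.P. rise was 1.48 (SE 0.55, edgeR adjusted p = 0.980) and 0.97 without I.P. mouse 1, under 2-fold. It also missed the criterion without DMSO mouse 1 (1.64), DMSO mouse 2 (1.35) or I.P. mouse 4 (1.44).

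Among the other receptors Cysltr1 fell in I.P. mice. Cysltr1 encodes a receptor for cysteinyl leukotrienes and spans 106574346 to 106603679 of chromosome X. Its level was 98.1 and 90.8 CPM in DMSO mice, 18.03, 55.4, 54.7 and 23.7 CPM in I.P. mice, and 67.8 and 48.9 CPM in S.C. mice. All 6 thiostrepton mice were below both DMSO mice. The I.P. change was -1.32 (SE 0.45, edgeR adjusted p = 0.980), and it missed the criterion without DMSO mouse 1 (-1.26) or DMSO mouse 2 (-1.37). The S.C. change was -0.72 (SE 0.33) and did not meet the criterion. Cysltr1 was the most abundant of the 15 receptors of this list, of which 10 had a mean under 1 CPM and 3 had 0 counts in all 8 mice.

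EP2 and EP4 signal through cyclic AMP, and of the 15 genes tested in that list 2 rose and 1 fell in S.C. over DMSO mice, where 2.29% of all genes were higher and 2.77% lower. Pde4b encodes a phosphodiesterase that breaks down cyclic AMP and spans 102087543 to 102607259 of chromosome 4. Its level was 21.2 and 8.50 CPM in DMSO mice, 37.5, 7.54, 11.9 and 12.8 CPM in I.P. mice, and 51.3 and 149 CPM in S.C. mice. Both S.C. mice were above all 6 others. The change was 2.73 (SE 0.71, edgeR adjusted p = 0.747) over DMSO and 2.52 (SE 0.64, adjusted p = 0.315) over I.P. mice. Over DMSO it met the criterion under 14 of 14 alternatives, at 1.73 to 3.53, and over I.P. mice it was 1.55 without S.C. mouse 2, outside it.

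Crem, a transcription factor gene induced by cyclic AMP, was at 25.8 and 23.3 CPM in DMSO mice, 21.5, 21.1, 24.5 and 17.97 CPM in I.P. mice, and 38.5 and 87.1 CPM in S.C. mice. Both S.C. mice were again above all 6 others, S.C. mouse 2 by far. The change was 1.33 (SE 0.49, edgeR adjusted p = 0.869) over DMSO and 1.56 (SE 0.36, adjusted p = 0.273) over I.P. mice. Without S.C. mouse 2 it was 0.59 and 0.85, outside the criterion. Over DMSO it also missed the criterion without DMSO mouse 1 (1.40) or DMSO mouse 2 (1.25). For Ptgs2, Ptger4, Pde4b and Crem alike, the highest of the 8 mice was S.C. mouse 2, which also had the highest neutrophil marker sum. That mouse was highest too for Emr1, Itgam, Csf1r, Mertk and Ptprc of the macrophage list. It was not for Cd68, Mrc1, C1qa, C1qb, C1qc and Fcgr1 of that list. The T and NK cell marker sum, like Ptger4, Pde4b and Crem, was higher in both S.C. mice than in the other 6. Of its single markers Gzma and Cd3g were too, while Cd3d was lower in both. Cd4 made 11.7 CPM of that sum in S.C. mouse 2. The part of either marker sum was not tested.

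Adcy9, an adenylate cyclase gene spanning 4287529 to 4420498 of chromosome 16, had 13 and 40 counts in DMSO mice, 125, 20, 29 and 44 in I.P. mice and 0 in both S.C. mice. Against the floor of 3 counts per library it was at least 7.56-fold lower in S.C. than in DMSO mice and at least 15.9-fold lower than in I.P. mice. The criterion was met in S.C. over DMSO mice (edgeR adjusted p = 0.747) and over I.P. mice (adjusted p = 0.277). Without DMSO mouse 1 the first was not met. The S.C. libraries were those with most missing low genes, at 15.8% and 21.6%, and the part of this in the Adcy9 values was not tested. Prkar1a, a regulatory subunit of the cyclic AMP-dependent kinase and the most abundant gene of the list, was at 414 ± 20.3 CPM (SD, n = 2) with DMSO, 400.0 ± 37.5 CPM (SD, n = 4) by I.P. and 469 ± 85.8 CPM (SD, n = 2) by S.C., without meeting the criterion.

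**Figure D4:**
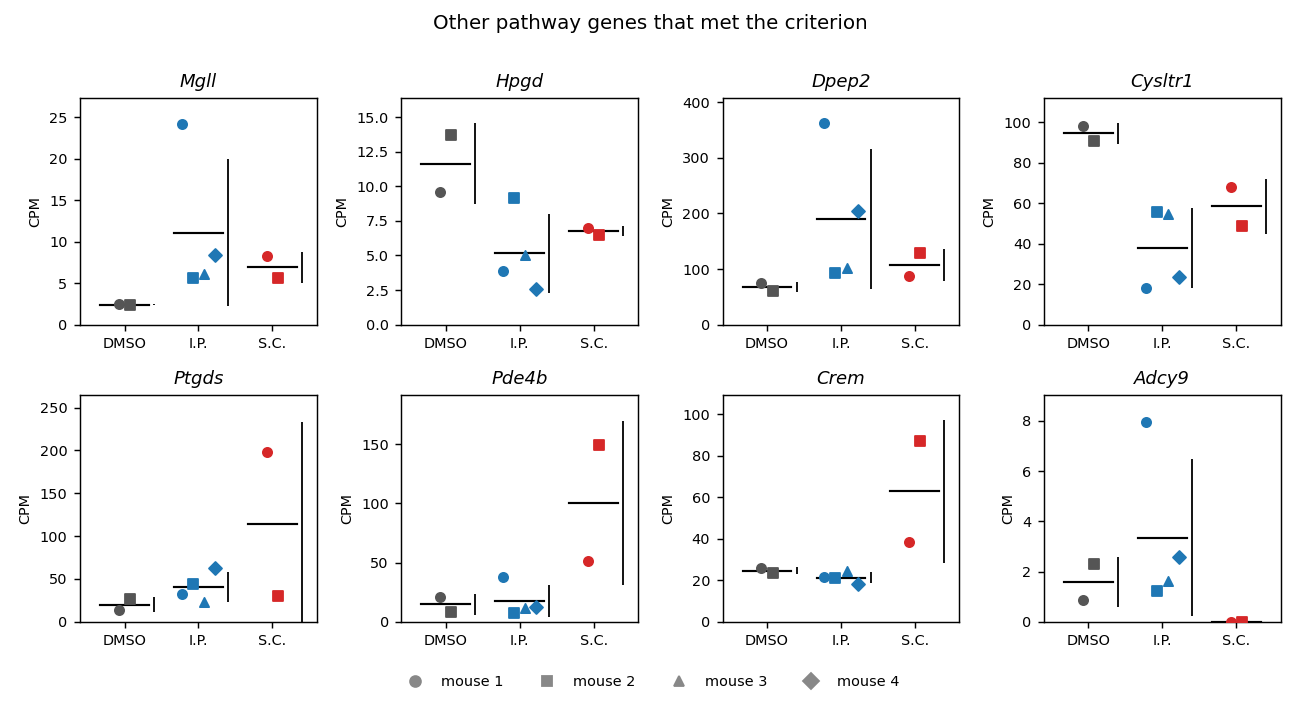
Level in CPM (vertical axis, from 0) of the 8 other pathway genes that met the criterion for a route over DMSO, with a point per mouse, a line at the group mean and a vertical line for 1 SD, drawn no lower than 0. Cysltr1 and Hpgd lie lower and Mgll and Dpep2 higher in all 6 thiostrepton mice than in both DMSO mice, Pde4b and Crem are highest in S.C. mouse 2, and Adcy9 has 0 counts in both S.C. mice.

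For each of the 8 members with a mean of at least 5 CPM, the 2 genes most alike in log2 CPM over the 8 mice were sought among 9327 genes. Alox5ap was most like Kdm4a (Pearson r = 0.99) and Use1 (0.98), Pla2g4a most like Rp2h (0.99) and Tpx2 (0.99), and Hpgds most like Slc40a1 (0.98) and Ctso (0.97). Ptger2 was most like Il7r (0.97) and Cblb (0.96), Ptger4 most like Alpk1 (0.96) and Ppp1r13b (0.95), and Ptgs2 most like Mettl6 (0.97) and Flrt3 (0.96). For Alox5 these were Tmem176b (0.93) and Vps13d (0.92), and for Ptgs1 Exo5 (0.94) and Pxmp4 (0.90). Among the members themselves the highest value was that of Pla2g4a and Hpgds, r = 0.90, both of which are long and were lowest in I.P. mouse 1 and S.C. mouse 1. The part of length in that value was not tested. With 8 mice and 9327 genes, values of this size are a description only.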

How the data were processed

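RNA-seq counts of TAMs from 8 mice were used, grouped by treatment label (IS stands there for S.C.). The authors deposited whole-number counts per gene symbol without normalization. The methods of the study name bowtie2 and RSEM on mm10, while the submitters' processing notes name TopHat2 and edgeR, so which tool made the counts is unsure. All 8 sample columns were used.

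The tools were edgeR 4.0.16, DESeq2 1.42.0 and limma 3.58.1 under R 4.3.3. Genes were kept by filterByExpr (minimum count 10, minimum total 15) and scaled by TMM, and the two-sided quasi-likelihood test was fitted to 1 pair of groups at a time. Adjusted p are Benjamini-Hochberg values over all genes tested. The standard error is the log2 fold change divided by the square root of F. CPM are scaled by TMM over the 8 libraries, and log2 CPM have a prior count of 2. The procedure was tested on simulated data.

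The members and lists were chosen with earlier results of these data known. Named are the 10 members, listed genes that met the criterion for a route over DMSO, the most abundant gene of each list, and for members with a mean of at least 5 CPM the 2 genes most correlated with them. Positions are from GENCODE vM21 on GRCm38, the assembly of mm10, in which 92.8% of symbols were matched, and promoters are from RefSeq. The filter was dropped or set to 1 CPM in 2 samples, scaling was by RLE or by library size alone, and the test was replaced by DESeq2 or the likelihood ratio test. Other alternatives fitted the 3 groups together, blocked by replicate number or left out a mouse. A transcript length offset and a block with crossed numbers were chosen after seeing the data.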

Additional observations from a re-analysis of the deposited data

Results flagged for a closer look

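For 2 members the level met the criterion in the test of S.C. against I.P. mice, where route and dose cannot be told apart. The log2 fold change was 3.68 for Ptgs2 and 1.495 for Ptger4, each with both S.C. mice above all I.P. mice. Without S.C. mouse 2, with 1 S.C. mouse left, the changes were 1.10 and 0.91. Neither gene met the criterion over DMSO by either route. Among the further pathway genes the same test gave 2.52 for Pde4b, 1.56 for Crem and 1.49 for Ptgds. For Adcy9 it gave a fitted value of -8.74, which depends on the prior count because both S.C. mice had 0 counts. None of the 6 passed an adjusted p of 0.05 in edgeR's quasi-likelihood test. Mgll stood at 24.2 CPM in I.P. mouse 1, apart from the other 3 I.P. mice. Chance sets a sample apart in this way in about 1 of 20 groups, and many genes were looked at.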

How the results depend on the processing

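With 2 DMSO and 2 S.C. mice the counts of members that met the criterion move with single mice. In I.P. over DMSO mice 1 member met it, and leaving out each mouse gave 1 to 2, the 2 without DMSO mouse 2. In S.C. over DMSO mice 0 did, and leaving out each mouse gave 0 to 4, with 1 without DMSO mouse 1 (Ptgs2), 4 without S.C. mouse 1 (Ptgs2, Ptger2, Ptger4 and Ltc4s, where 24.5% of all genes met it) and 3 without S.C. mouse 2 (Ptgs1, Ptges and Pla2g4a, all lower, where 27.8% did). These fits take the lone mouse to vary like the other group. In the same comparison no filter, the likelihood ratio test and DESeq2 each gave 2 (Ptgs2 and Ptger4), all 3 groups in 1 fit gave 2 (Ptgs2 and Ptger2), and the transcript length offset gave 1 (Ptger4). In S.C. over I.P. mice 2 did, and leaving out each mouse gave 1 to 2, with 1 (Ptges) without S.C. mouse 2. The cause of these shifts was not tested.

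The numbers in the labels were not found to pair the mice, since the deviations of same-numbered mice correlated at -0.19 and 0.02 (I.P. and DMSO), -0.19 (S.C. and DMSO) and 0.17 and 0.02 (S.C. and I.P.) over 9328 genes. With a replicate block 0 members met the criterion in I.P. over DMSO mice (Ptger2 at 1.10), 1 in S.C. over DMSO (Ptgs2) and 2 in S.C. over I.P. mice. Over all genes the block gave 330, 429 and 391 calls, against 243, 591 and 860 without it. With the numbers crossed, chosen after seeing the data, 2 members and 475 genes were called in S.C. over DMSO mice.

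Directions turned for members with small changes. With library size only, which put the median of all genes at -0.13 in S.C. over DMSO mice (196 higher and 429 lower, against 268 and 323), Alox5 was -0.10 in S.C. over DMSO mice, and in S.C. over I.P. mice Ptger2 was -0.035 and Hpgds -0.10. With the length offset, also chosen after seeing the data, Hpgds was 0.041 in S.C. over DMSO mice. Leaving out each mouse, the I.P. changes over DMSO ranged from -1.45 to 0.97 for Ptgs2, -0.66 to 0.092 for Ptger4, -0.049 to 0.41 for Alox5ap, -0.86 to 0.21 for Ltc4s and -0.16 to 0.11 for Hpgds. The S.C. changes over DMSO ranged from -4.82 to 0.60 for Ptges, -0.21 to 0.35 for Alox5, -1.29 to 0.10 for Pla2g4a and -0.29 to 0.15 for Hpgds. Those of S.C. over I.P. mice ranged from -0.62 to 0.36 for Ptgs1, -0.54 to 0.50 for Ptger2, -0.61 to 0.75 for Pla2g4a and -0.21 to 0.20 for Hpgds. Of all values of single members under the alternatives, 389 kept direction and side of the threshold, 22 came to meet the criterion in the same direction, 3 no longer met it and 26 turned direction. At this depth a level under 0.169 to 0.218 CPM, by library, was not detectable, and Ptges was under it in S.C. mouse 1.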
